A study of Homo sapiens with 4 samples.

Results

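The cassette exons of 4 cell adhesion genes were examined: CTNND1, ERBB2IP (now named ERBIN), CADM1 and CLSTN1. They were taken by gene symbol from a table of skipped-exon events made with junction reads, and gave 27 of its 31408 events and 19 of its 27483 unique exons. An event is an exon that is joined to both flanking exons or skipped, and the same exon gives a separate event with every different pair of neighbours. The 4 genes were chosen on the deposited differences and false discovery rates (FDR) of their exons, so those values are given as a description, and no test is built on them.

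The cells were HEK293T, a human embryonic kidney line, transfected with the Cas9 plasmid PX459 and with pgRGFP encoding guides on either side of RBFOX2. Libraries came from 4 clones, each grown from a single sorted cell: 2 labelled WT and 2 labelled RBFOX2 KO. Clones of both genotypes went through the same transfection and sorting, so a difference between them can also be one between clones. RBFOX2 is an RNA-binding protein that recognises GCATG in RNA and regulates nearby exons. The authors' deposited table compares a first with a second set of libraries, and neither its header nor the labels say which set is the knockout. All directions below are therefore first against second set. Columns with junction counts and inclusion levels per library carry only a set number, match no clone's label and were not used here, so depth, inclusion per clone and the spread between clones are not given. The table holds splicing values only, so the cell type was not checked against marker genes.

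The 4 proteins act at the cell surface in different roles. Cadherins hold neighbouring cells together, and p120-catenin, the product of CTNND1, binds their cytoplasmic tails and keeps them at the membrane. Transcripts of CTNND1 are known to use several start codons and alternative exons, and the isoforms differ between epithelial and mesenchymal cells. ERBIN, the product of ERBB2IP, is a scaffold with leucine-rich repeats at one end and a PDZ domain at the other, and binds the receptor ERBB2. CADM1 is an adhesion receptor of the immunoglobulin superfamily whose extracellular stalk is known to vary by splicing. CLSTN1 encodes calsyntenin-1, a transmembrane protein with cadherin repeats that links vesicle cargo to kinesin light chain.

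Called exons are shown first, with the CADM1 54-nt exon, which was not called, added because it shares a junction with the called 33-nt exon. The sequences are RNA-sense DNA from GENCODE 29 transcripts (GRCh38), matched by gene, exon length and both intron lengths. In the lines below, capitals mark the cassette exon and lower case marks the last or first 20 nt of the exons it is joined to, so that both inclusion junctions can be read.
CADM1 33-nt exon: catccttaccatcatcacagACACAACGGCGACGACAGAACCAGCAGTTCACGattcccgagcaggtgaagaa
CADM1 54-nt exon: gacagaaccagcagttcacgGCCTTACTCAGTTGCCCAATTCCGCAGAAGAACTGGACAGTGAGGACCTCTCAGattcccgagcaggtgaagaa
CLSTN1 57-nt exon: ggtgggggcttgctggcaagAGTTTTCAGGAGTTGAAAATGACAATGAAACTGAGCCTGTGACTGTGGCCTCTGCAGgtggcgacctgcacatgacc
CTNND1 72-nt exon: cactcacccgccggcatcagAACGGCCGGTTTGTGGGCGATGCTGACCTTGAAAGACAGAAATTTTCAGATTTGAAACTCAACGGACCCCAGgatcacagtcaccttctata
ERBB2IP 123-nt exon: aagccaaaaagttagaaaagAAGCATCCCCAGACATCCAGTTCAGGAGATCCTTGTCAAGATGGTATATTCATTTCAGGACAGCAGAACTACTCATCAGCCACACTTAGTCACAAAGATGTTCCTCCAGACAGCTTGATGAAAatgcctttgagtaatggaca

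The CADM1 exons share the same downstream exon, which is why both lines end alike, and the 54-nt exon follows directly on the 33-nt exon. The next exon of ERBB2IP has 2 alternative starts in the table. All 207 nt are shown, and capitals mark the 129 nt that remain when the later start is used, 78 nt further in.
ERBB2IP 207-nt exon: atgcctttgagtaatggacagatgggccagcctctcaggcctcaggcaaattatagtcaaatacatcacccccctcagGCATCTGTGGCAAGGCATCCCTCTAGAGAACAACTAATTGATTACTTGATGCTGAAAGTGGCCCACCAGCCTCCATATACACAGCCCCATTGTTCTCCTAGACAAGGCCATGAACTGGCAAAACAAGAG

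In the 144-nt exon of ERBB2IP, capitals mark each GCATG.
ERBB2IP 144-nt exon: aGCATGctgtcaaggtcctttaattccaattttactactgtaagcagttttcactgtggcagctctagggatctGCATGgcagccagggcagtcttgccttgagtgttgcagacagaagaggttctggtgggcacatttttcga

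An event was called different when the authors' deposited table listed an FDR under 0.05 and an inclusion difference of 0.1 or more in either direction. Inclusion runs from 0 (always skipped) to 1 (always included) and is estimated from junction reads after correction for the lengths of both forms. Of the 27 events, 7 were called, each in a different exon when exons are counted by start and end, as throughout. The called 207-nt and 129-nt exons of ERBB2IP have the same end and are forms of 1 exon. The first set was higher in 6 of the 7 called events (CTNND1, CADM1 and 4 exons of ERBB2IP) and the second set in 1 (CLSTN1). The background over all events was 5.15% called, 2.77% with the first and 2.38% with the second set higher, and 5.73% of unique exons had a call. The members' share of 25.9% is set by how the genes were chosen and nothing is read from it. The median difference was 0.036 over the 27 events and 0.004 over all events of the authors' deposited table. All 7 called exons have a length divisible by 3, as do 14 of the 19 exons. The share over the whole table is not given here, so nothing is read from these counts.

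**Figure D1:**
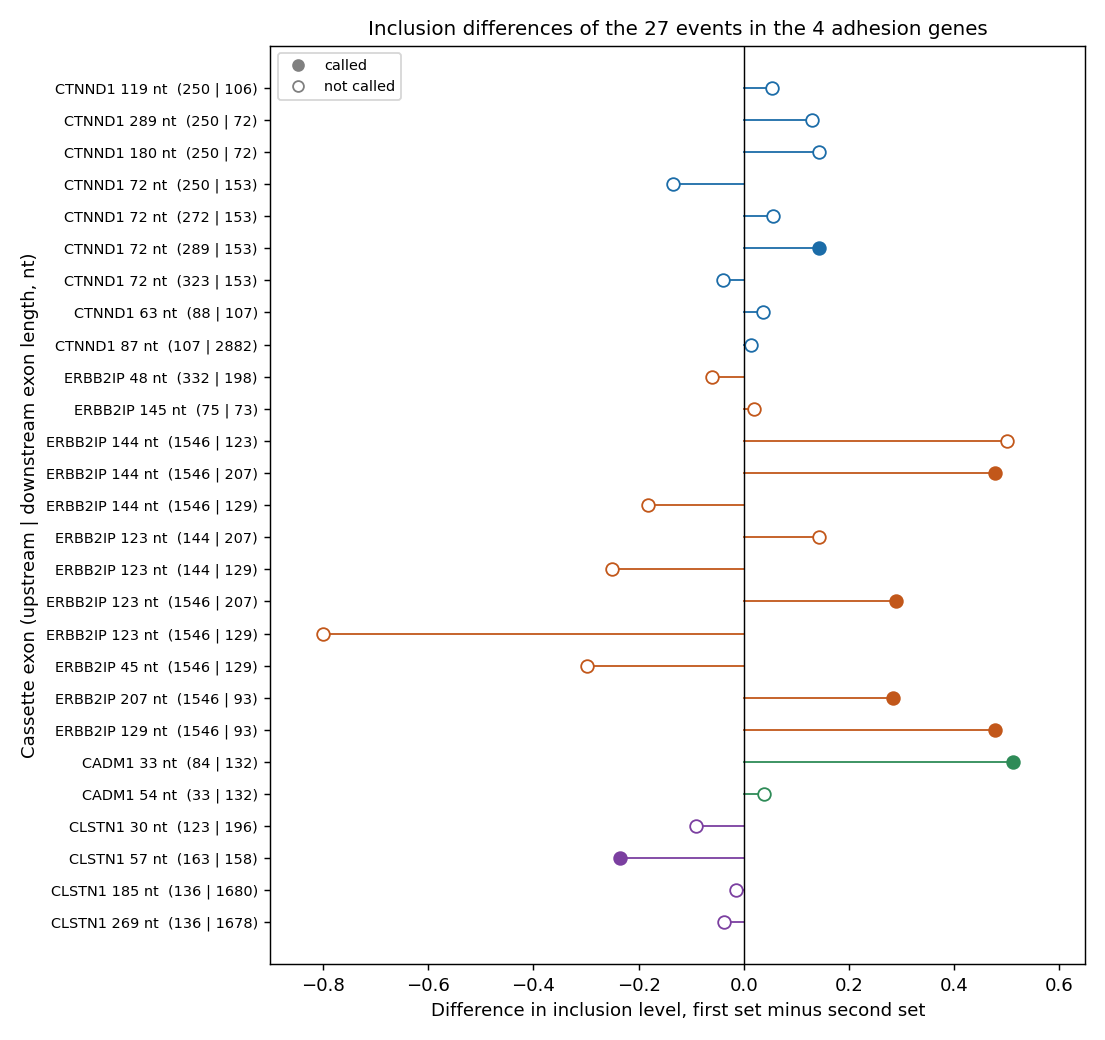
Inclusion difference (x axis, first minus second set) of each of the 27 events, with the lengths of the cassette exon and of its upstream and downstream exons on the y axis. Filled points are called and open points are not; the 4 CLSTN1 events all lie below 0, while CTNND1 and ERBB2IP have events on both sides.

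CADM1 had the largest called difference of the 4 genes, in an exon of only 33 nt. The exon (ENSG00000182985; chromosome 11, 115069126 to 115069158, minus strand, hg19) was 0.512 higher in the first set, with a p-value and an FDR listed as 0 in the authors' deposited table. Of the 871 events called with the first set higher, 120 (13.8%) had a difference at least as large. An intron of 11135 nt precedes the exon and one of 19630 nt follows it, against medians of 2147 and 2014 nt over the unique exons of the table. The 19630 nt hold the 54-nt exon, and when that exon is used the intron after the 33-nt exon is 7464 nt. Only 1.8% of the table's unique exons were shorter than the 33-nt exon.

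The 33-nt exon lies in the coding sequence of CADM1, at codons 360 to 371 of the 453 in a matched transcript. It starts after the first base of a codon, so inclusion adds 11 codons without moving the frame. Of the annotated transcripts, 2 contain this exon between the same neighbours and 1 skips it. The neighbouring 54-nt exon (chromosome 11, 115061608 to 115061661) is spliced to the 33-nt exon in its event and was 0.039 higher in the first set at a p-value of 0.41 in the authors' deposited table. Both events share a junction: the one that joins the 33-nt exon to the 132-nt exon counts as inclusion of the 33-nt exon and as skipping of the 54-nt exon. A larger difference was thus listed for the choice of whether to use the 33-nt exon than for whether the 54-nt exon follows it, and the gap between them was not tested.

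CLSTN1 was the only one of the 4 genes with a call in the other direction. Its 57-nt exon (ENSG00000171603; chromosome 1, 9797556 to 9797612, minus strand, hg19) was listed in the authors' deposited table at -0.235, that is, higher in the second set, with a p-value of 2.22e-16 and an FDR of 1.66e-13. Of the 748 events called with the second set higher, 61.9% had a difference at least as large. The exon codes for codons 497 to 516 of the 971 in a matched transcript and adds 19 codons in frame, with flanking introns of 3539 and 1455 nt. Between the same neighbours, GENCODE 29 has 3 transcripts with the exon, of which 2 are coding throughout it, and 1 that skips it.

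The other 3 exons of CLSTN1 were also lower in the first set but were not called. For the 30-nt exon (chromosome 1, 9816539 to 9816568) the authors' deposited table listed -0.091 at a p-value of 0.0838 and an FDR of 0.606. It lies near the start of the coding sequence, at codons 72 to 82 of the 981 in its matched transcript, and adds 10 codons. Near the other end of the gene, an exon listed with lengths of 185 and 269 nt, which differ by 84 nt at the 3′ end, had -0.015 and -0.037, each at a p-value of 1 in the authors' deposited table. The 185-nt form is coding in 3 transcripts and its length is not divisible by 3, and 0 transcripts skip either form between the same neighbours.

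ERBB2IP had 12 events in 7 exons, counted by start and end. Of these, 4 in a single cluster near the end of the coding sequence were called, all higher in the first set. The cluster follows a coding exon of 1546 nt. In order, it holds a 144-nt exon (ENSG00000112851; chromosome 5, 65364705 to 65364848, plus strand, hg19), a 123-nt exon (65367997 to 65368119) and an exon with 2 alternative starts, which is 207 nt (65370852 to 65371058) or 129 nt long (65370930 to 65371058). Each of these lengths is divisible by 3. In the annotated transcripts the first coding base of the 144-nt, the 123-nt or the 207-nt exon follows the same 3633 coding nt, so each of them can begin at codon 1212. After the 144-nt exon 160 codons remain, and after the 207-nt exon 66 remain, each in a transcript that has that exon.

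The last exon of the cluster had the lowest p-values. As a 207-nt cassette it was 0.283 higher in the first set, with p and FDR listed as 0 in the authors' deposited table. As a 129-nt cassette it was 0.478 higher, again with p and FDR listed as 0. Both events have the same skipping junction, from the 1546-nt exon to the 93-nt exon downstream, and the same downstream inclusion junction, so they differ only in the junction into the exon. They are not separate observations. GENCODE 29 has 3 transcripts with the 207-nt form between these neighbours, 0 with the 129-nt form and 2 that skip the exon.

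For the 144-nt exon joined to the 207-nt form downstream, the authors' deposited table listed a difference of 0.477, with a p-value of 9.99e-16 and an FDR of 7.13e-13. The 123-nt exon between the 1546-nt exon and the 207-nt form was listed at 0.29 by the authors' deposited table, with an FDR of 3.41e-05. Both events have the same skipping junction, from the 1546-nt exon to the start of the 207-nt form. That junction is also an inclusion junction of the 207-nt exon. Reads that skip the 144-nt and 123-nt exons are therefore reads that include the last exon. The called events that use this junction were nevertheless all higher in the first set. The same junction is also an inclusion junction of an event with a 45-nt exon. That event, not called, was listed at -0.298 by the authors' deposited table.

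Where the last exon of the cluster was the downstream partner, the sign of every event followed its start. With the 207-nt start downstream, 3 events had differences from 0.144 to 0.477 in the authors' deposited table, and 2 were called. With the 129-nt start downstream, 4 events had differences from -0.8 to -0.182 in the authors' deposited table. Of these 4, 3 had a p-value of 1, the lowest p-value was 0.133, and 0 were called. For the 123-nt exon the change of downstream start alone took the difference of the authors' deposited table from 0.29 to -0.8 with the 1546-nt exon upstream, and from 0.144 to -0.25 with the 144-nt exon upstream. For the 144-nt exon it went from 0.477 to -0.182; with the 123-nt exon downstream it was 0.5 at a p-value of 1 in the authors' deposited table. The calls among the 144-nt and 123-nt events were thus confined to those with the 1546-nt exon upstream and the 207-nt form downstream. The events share junctions, so their signs are not independent of each other. With the 129-nt start downstream, the 144-nt and 45-nt events and the 123-nt event listed at -0.8 have the same skipping junction. That junction is an inclusion junction of the called 129-nt exon, listed at 0.478 by the authors' deposited table. These negative differences are therefore not separate observations.

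**Figure D2:**
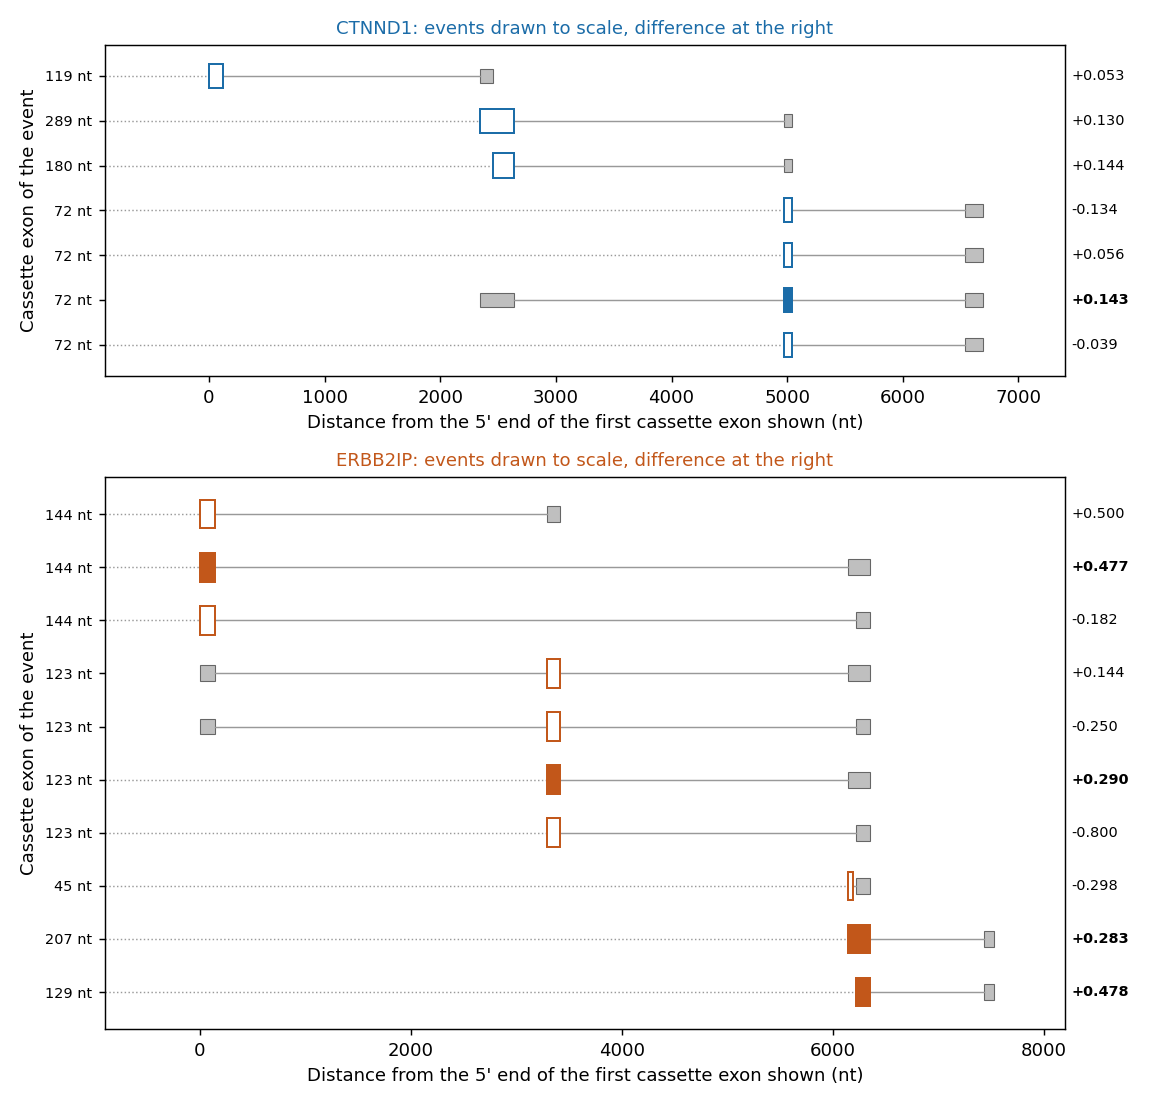
Structure of the events around the called exons of CTNND1 (top) and ERBB2IP (bottom), drawn to scale against the distance in nt from the 5′ end of the first cassette exon shown. Tall boxes are the cassette exons (filled if called), grey boxes are flanking exons and a dotted line runs to an upstream exon beyond the left edge. The numbers at the right are the differences, first minus second set; in ERBB2IP they are positive when the downstream box is the 207-nt form and negative when it is the shorter 129-nt form.

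Values as large as the -0.8 usually came without a call. The authors' deposited table listed 662 events at 0.8 or more in either direction, and 607 of them had a p-value of 1. Junction coverage was not used here, so how many reads stand behind the -0.8 is not reported.

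Outside the cluster, ERBB2IP had 2 further events. A 48-nt exon (65284463 to 65284510) holds no coding base in its 7 matched transcripts and was given -0.06 and a p-value of 0.944 by the authors' deposited table. The 145-nt exon (65320134 to 65320278) is coding, at codons 225 to 273, and is the only ERBB2IP exon whose length is not divisible by 3. The authors' deposited table gave it 0.02 at a p-value of 1. Between the same neighbours, 0 annotated transcripts skip either exon.

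CTNND1 had 9 events in 6 exons, and 1 event was called. Its 72-nt exon (ENSG00000198561; chromosome 11, 57561482 to 57561553, plus strand, hg19) was 0.143 higher in the first set in the event listed with the 289-nt exon upstream. The p-value was 1.62e-05 and the FDR 0.000693, both from the authors' deposited table. The difference was small among calls: 83.6% of the 871 events called with the first set higher had one at least as large. A 180-nt form of the upstream exon ends at the same base, so the junction reads cannot tell the forms apart. Paired instead with an exon further upstream, the 72-nt exon had -0.134 (250-nt form, p-value 0.101), 0.056 (272-nt form, p-value 1) and -0.039 (323-nt form, p-value 1) in the authors' deposited table. These forms of the more distant exon begin at the same base. The downstream exon, of 153 nt, was the same in all 4 events.

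The annotation of the 72-nt exon also differed by upstream partner. Joined across the 2336-nt intron that follows the 289-nt exon, it is coding throughout in 18 of 18 transcripts. The match used intron lengths, so these transcripts can hold the 289-nt exon or its 180-nt form. In a matched transcript the 72-nt exon lies at codons 66 to 89 of 933. Joined directly to the exon further upstream it holds no coding base in any matched transcript. These number 5 for the 250-nt, 1 for the 272-nt and 1 for the 323-nt form. The called event is thus the one in which the exon is annotated as coding.

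The exons before the 72-nt exon had differences of the same size as the call but missed the FDR limit. For the 289-nt exon (57558857 to 57559145) the authors' deposited table listed 0.13 and an FDR of 0.152. Its 180-nt form, which starts 109 nt later, had 0.144 (FDR 0.143 in the authors' deposited table). These were the members just outside the limits, and the called 72-nt event of CTNND1 was the member just inside. The 289-nt exon holds the start codon and the first 65 of 933 codons, and the 180-nt form a start codon and the first 11 of 908. Skipping of either form uses the junction from the 250-nt exon upstream to the 72-nt exon. The same junction counts as inclusion in the 72-nt event listed at -0.134, so the positive and the negative difference share reads. Both forms also share an inclusion junction with each other and with the called 72-nt event. Their positive differences and that of the call are therefore not separate observations.

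The remaining CTNND1 exons were near 0. The 119-nt exon (57556509 to 57556627), with no coding base in its single matched transcript, had 0.053 at a p-value of 0.431 in the authors' deposited table. Toward the 3′ end, the 63-nt exon (57581783 to 57581845) had 0.036 at a p-value of 0.324 and the 87-nt exon (57583387 to 57583473) had 0.013 at a p-value of 1 in the authors' deposited table. Both of these are coding and in frame, and lie within the last part of the protein, with 38 and 3 codons after them. In the annotation 5 transcripts skip the first and 17 skip the second between the same neighbours.

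Across the 4 genes, all 3 exons listed with several flanking pairs had exactly 1 called event and differences of both signs. These are the 72-nt exon of CTNND1 (4 events), the 144-nt exon of ERBB2IP (3 events) and the 123-nt exon of ERBB2IP (4 events). From the lowest to the highest difference they spanned 0.277, 0.682 and 1.09 in the authors' deposited table. Over all genes, 472 exons had several events and a call. Of these, 4.4% had all events called and the median span was 0.316. Both signs were found in 47.2% of them, and in the same 47.2% of all 3243 exons with several events, called or not. Span grew with the number of events: the median was 0.45 for the 120 called exons with 3 or more events, of which 70% had both signs, and 0.504 for the 38 with 4 or more. Among all 472, whatever their number of events, a span at least as wide as that of the 123-nt exon was found for 15 exons (3.2%), as that of the 144-nt exon for 62 (13.1%) and as that of the 72-nt exon for 269 (57%). Of the 3 members, the 123-nt exon of ERBB2IP had the widest span.

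**Figure D3:**
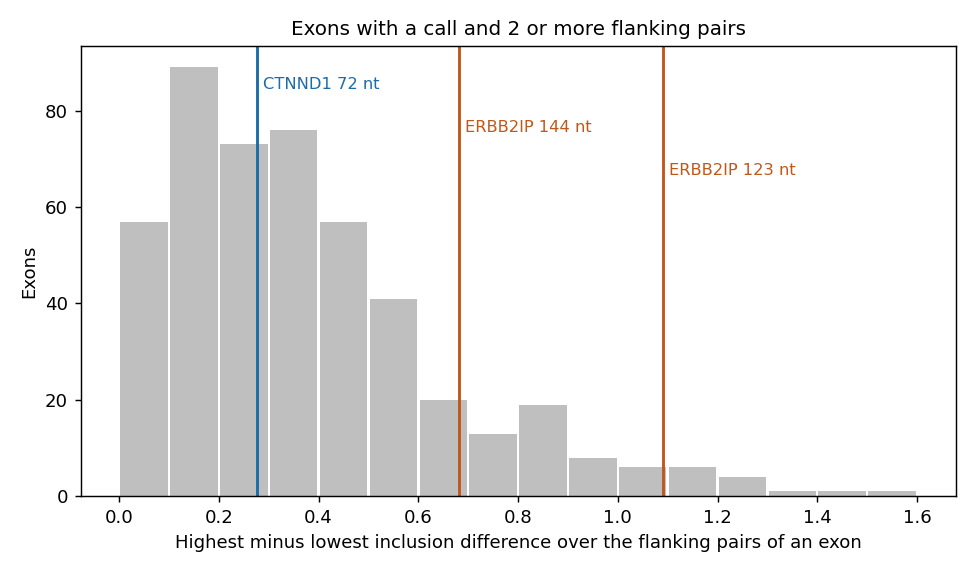
Number of exons (y axis) by the span between the highest and lowest inclusion difference over their flanking pairs (x axis), for the 472 exons of the table with several pairs and a call. Lines mark the 72-nt exon of CTNND1 at 0.277 and the 144-nt and 123-nt exons of ERBB2IP at 0.682 and 1.09, the last of which lies in the tail.

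Shared junctions tie most of these events together. At least 1 junction was shared with another event by 21 of the 27 events: 10 of 12 in ERBB2IP, 7 of 9 in CTNND1, 2 of 2 in CADM1 and 2 of 4 in CLSTN1. There were 7 pairs of events with the same skipping junction, and in 15 instances the skipping junction of an event was an inclusion junction of another. The called CLSTN1 event shared 0 junctions with other listed events of its gene. The 7 calls thus came from 4 loci, with 4 of them in a single cluster of connected junctions.

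In the plot of p-values against differences, 3 of the calls lie at a p-value listed as 0, a level the authors' deposited table gave to 36 of the 1619 called events. They are the CADM1 33-nt exon and both forms of the last ERBB2IP cluster exon. By contrast, 10 of the 27 events had a p-value of 1, against 51.4% of events in the whole table. Of the 20 events without a call, 9 differed by 0.1 or more in either direction. The share of such events over the whole table is not given here, so nothing is read from that count.

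**Figure D4:**
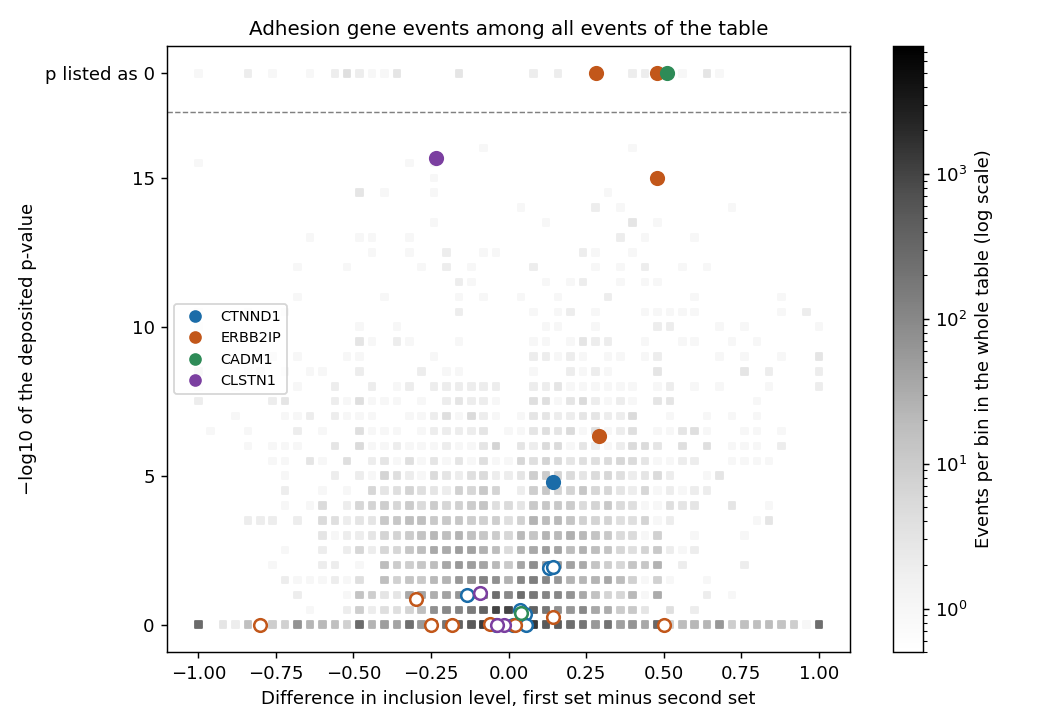
Deposited p-value (y axis, −log10, with p listed as 0 drawn above the dashed line) against the inclusion difference (x axis, first minus second set). Grey squares count all 31408 events and coloured points are the events of the 4 genes, filled if called; 7 filled points stand above the others, with 1 of them, from CLSTN1, on the negative side.

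The called exons did not share a common intron architecture. As listed, upstream introns ranged from 2336 nt (CTNND1) to 20150 nt (129-nt form of ERBB2IP). Downstream introns ranged from 1085 nt (ERBB2IP) to 19630 nt (CADM1, where they span the 54-nt exon). In the called ERBB2IP events the listed upstream intron was longer than in 87.4% to 91.5% of the table's unique exons, and for CADM1 84.5% were shorter. For CTNND1 and CLSTN1 these shares were 52% and 62.2%. All called ERBB2IP events have the 1546-nt exon upstream. Beyond the 144-nt exon, their upstream introns thus span earlier cassette exons of the cluster. With the 144-nt exon upstream, the intron before the 123-nt exon is 3148 nt.

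**Figure D5:**
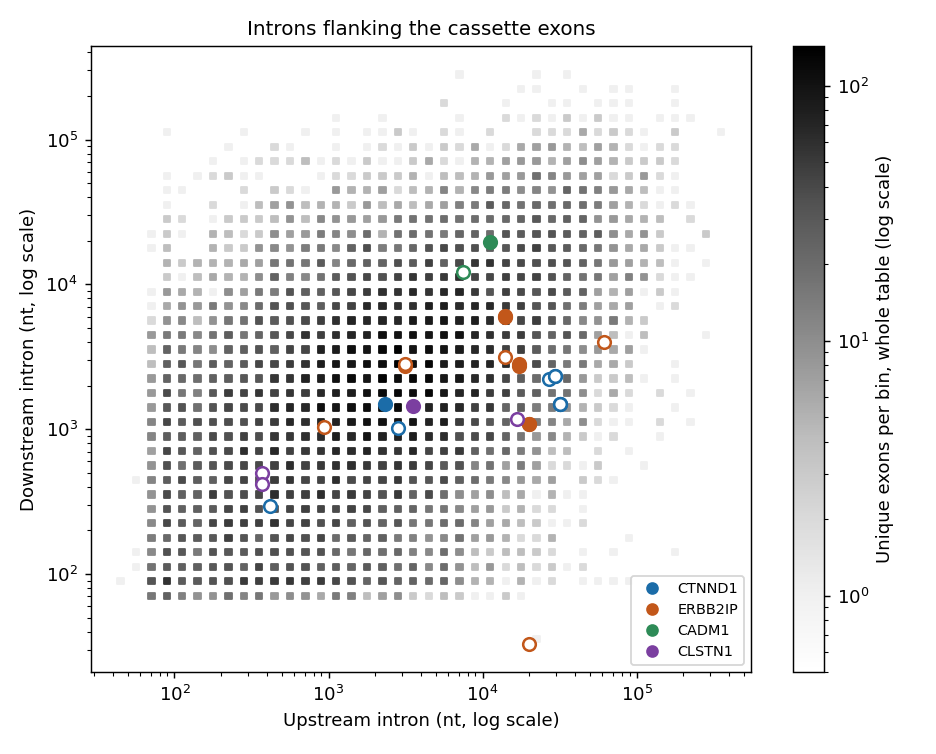
Length of the upstream intron (x axis) against that of the downstream intron (y axis), both on log scales, for the unique exons of the table (grey, by count) and each event of the 4 genes (coloured, filled if called). The single point far below the rest is the 45-nt ERBB2IP event, whose downstream intron is listed at 33 nt.

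The 45-nt event of ERBB2IP has the shortest intron beside any cassette exon of the table. Its exon (65370852 to 65370896) covers the first 45 nt of the 207-nt exon, and its downstream partner is the 129-nt form, which leaves 33 nt between them. Among 53043 distinct introns beside cassette exons, the next shortest were 49 and 56 nt. In the reference sequence these 33 nt begin with GC and end with AG, and no GENCODE 29 transcript matched this event. The authors' deposited table gave it -0.298 at a p-value of 0.133.

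The letters GCATG, which RBFOX proteins bind, were searched in the reference sequence of the member exons, on the RNA strand and as CATGC on the other strand. Of the 7 called exons, only the 144-nt exon of ERBB2IP holds GCATG: it has 2 copies, the first at position 2 counted from the exon's 5′ end and the second within TGCATG at position 74. Among 178 matched exons of 144 nt in the table, 34 (19.1%) hold GCATG, 5 hold 2 or more copies and 7 (3.93%) hold TGCATG. The first copy overlaps CATGC at position 3. The other 6 called exons hold neither GCATG nor CATGC. Shares of matched exons of the same length with GCATG were 2.74% at 33 nt, 2.86% at 57 nt, 4.62% at 72 nt, 8.61% at 123 nt, 15.1% at 129 nt and 10.6% at 207 nt. RBFOX proteins often act from introns, whose sequence was not used here, so these matches describe the exons only.

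Other adhesion genes were counted from 5 lists of 75 genes. Events were found for 49 of the genes, 215 in all. Of these 11 were called, 5.12%, against 5.15% of the whole table, with the first set higher in 5 and the second in 6. The median difference was -0.001. Cadherin and catenin genes had 4 called of 50 events. Among them, a 120-nt exon of ARVCF, a relative of p120-catenin, was 0.457 higher in the first set (FDR 6.53e-05 in the authors' deposited table; ENSG00000099889; chromosome 22, 19958739 to 19958858).

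Partners of the ERBIN family in cell polarity and hemidesmosomes had 2 called of 51 events. An 18-nt exon of DST, which encodes a linker of the cytoskeleton to adhesion sites, was listed at -0.346 (FDR 8.89e-08 in the authors' deposited table; ENSG00000151914; chromosome 6, 56333780 to 56333797). Immunoglobulin-type adhesion receptors and their scaffolds had 1 called of 57: a 147-nt exon of F11R, a tight junction receptor, at 0.126 (FDR 0.0276 in the authors' deposited table; ENSG00000158769; chromosome 1, 160970421 to 160970567).

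Calsyntenins and their partners had 2 called of 32 events, both for a 131-nt exon of KLC1, the kinesin light chain that binds calsyntenin-1 (ENSG00000126214; chromosome 14, 104153418 to 104153548). Its 2 called events went in opposite directions, 0.161 with an FDR of 0.00435 and -0.37 (FDR 0.00853 in the authors' deposited table), and it was listed with 5 flanking pairs. Tight junction and integrin genes had 2 called of 25 events, both higher in the second set. A 240-nt exon of TJP1, which encodes the junction scaffold ZO-1, had -0.108 (FDR 2.51e-06 in the authors' deposited table; ENSG00000104067; chromosome 15, 30011981 to 30012220).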

How the data were processed

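Per the labels' protocols, Trizol RNA was freed of ribosomal RNA before stranded library preparation. The submitters' processing notes name STAR 2.7.3a and the build hg19. The authors deposited a single skipped-exon table in the format of rMATS, whose version and annotation are not given in the sources used here. Per the file headers it holds, for each event, a p-value, an FDR and an inclusion difference, treated as a score from -1 to 1 and read as first minus second set by the rMATS convention. A Benjamini-Hochberg adjustment of all 31408 deposited p-values gave the deposited FDR to within 1.11e-16. Effective lengths were up to 188 nt for inclusion and 94 nt for skipping. Only junction reads enter, so short exons offer fewer read positions. The 6 columns of values per library matched no label and were not used, so the p-values are the authors' own, from 2 clones per genotype, and depth per library is not given.

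Starts were made 1-based. Of the 27 events, 22 matched GENCODE 29 by gene, exon length and both intron lengths. All 22 have another start on GRCh38, so no coordinate was carried between builds. Lists of adhesion genes and thresholds are as stated in the text. All events of the 4 genes are reported, and for each list the called exon with the lowest FDR is named. The members and lists were chosen with earlier results of these data known. The code that applies the thresholds and collapses events to exons was tested on simulated data. Alternatives were an FDR limit of 0.01 or 0.1, no minimum difference or one of 0.2, Bonferroni correction, adjustment without p-values of 1, and correction for the number of events per exon. Python 3.11.15, pandas 2.3.3, numpy 2.4.6 and matplotlib 3.10.9 were used. A called exon of the tight junction and integrin list is counted but not reported here.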

Additional observations from a re-analysis of the deposited data

How the results depend on the processing

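The count of 7 called events in the 4 genes was the same at FDR limits of 0.01 and 0.1, without a minimum difference and when events with a p-value of 1 were left out of the adjustment. It was 6 at a minimum difference of 0.2 and under Bonferroni correction over the table, both times without the CTNND1 72-nt exon. With the lowest p-value of an exon corrected for how many events it had, 7 exons were called. In the whole table only Bonferroni correction moved the count of 1619 called events by more than 1.5 times, to 472, which follows from the stricter limit. Another choice of flanking pair turned the direction of all 3 exons listed with several pairs. The lowest difference over the pairs, in each case from an event that was not called, was -0.134 for the CTNND1 72-nt exon, -0.182 for the ERBB2IP 144-nt exon and -0.8 for the ERBB2IP 123-nt exon. The median over the pairs was 0.0085 for the first, 0.477 for the second and -0.053 for the third, which also turned. The cause was not tested.

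No paired analysis was possible because no column names a replicate. Leaving out each library was not run, since no column of values per library was matched to a clone, so how far 1 clone decides a call was not tested. Coverage was not used either, so the number of reads behind a p-value of 1 is not given.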

Other observations

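In the 5 lists of adhesion genes, calls also fell in exons not described so far. Those below are named here after their values were seen. A 69-nt exon of VEZT, which encodes a transmembrane protein of adherens junctions, was 0.732 higher in the first set in the authors' deposited table with an FDR of 9.45e-05, and 0.052 higher in its other event. A 99-nt exon of DLG1, a scaffold of cell polarity, had 0.334 (FDR 5.12e-06 in the authors' deposited table). PKP4, a relative of p120-catenin, had -0.153 for a 113-nt exon (FDR 0.00781 in the authors' deposited table). A second exon of ARVCF, of 199 nt, had -0.307 (FDR 0.0173 in the authors' deposited table), opposite in sign to its 120-nt exon.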
